A study of Mus musculus with 4 samples.

Results

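The inflammasome and pyroptosis genes described here are Nlrp3, Pycard, Casp1, Casp4, Gsdmd, Aim2, Nlrc4, Naip5 and Txnip. They were chosen by gene symbol, and all 9 had 1 row among the 32285 genes listed in each library. The study sequenced cells of mouse hearts in droplets, with 4 libraries for 4 groups. The groups were a control, a sham, mice with cecal ligation and puncture (CLP, a surgical model of abdominal sepsis), and mice with CLP that also had low-level tragus stimulation, a weak current on the part of the ear that the vagus nerve supplies. The last group is called CLP plus stimulation or the stimulated library. The labels give no strain, age, number of animals, time after surgery or sham stimulation, and whether hearts were pooled is not given in the sources used here. The series asks whether tragus stimulation eases the heart's failure in sepsis through macrophages. Each group is a single library, so differences cannot be checked against the spread between animals, and no p-value is given.

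Inflammasomes are cytosolic complexes that turn the sensing of microbes or damage into release of cytokines and lytic death. A sensor such as NLRP3, AIM2 or NLRC4 gathers the adaptor ASC (the product of Pycard), which activates caspase-1. Caspase-1 cuts pro-interleukin 1 beta, pro-interleukin 18 and gasdermin D, whose freed end forms pores in the cell membrane. In mice the caspase encoded by Casp4, also called caspase-11, binds bacterial endotoxin in the cytosol and cuts gasdermin D directly. Priming through NF-kappaB is known to raise Nlrp3 and Casp4 transcripts, so both genes are read as marks of a primed cell in many tissues. The values below are transcript levels and say nothing of whether the proteins were assembled or cut.

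The promoters of Casp4 and Nlrp3 are shown because these 2 genes were higher in CLP plus stimulation than in CLP in all 4 of the main cell classes, and because each window holds a match to the NF-kappaB consensus. In endothelial- and fibroblast-like cells Nlrp3 was scarce, and the part of RNA from other classes in its difference was not tested. They are RefSeq sequences of build GRCm38.p6, both on the plus strand, 5′ to 3′, with the match in capitals. In Casp4 the capitals cover 2 overlapping matches.
Casp4, chr9:5308716-5308806: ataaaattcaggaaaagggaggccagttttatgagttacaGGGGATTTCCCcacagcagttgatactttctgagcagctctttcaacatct
Nlrp3, chr11:59541343-59541432: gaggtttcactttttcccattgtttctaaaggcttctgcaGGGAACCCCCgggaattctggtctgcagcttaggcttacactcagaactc
A promoter of 8 of the 9 genes was in the RefSeq table. The NF-kappaB consensus was searched on both strands in windows from 250 bases before to 50 bases after each start, and 4.51% of all 32851 promoters held a match. Among the members it was found in Casp4, in 1 of 2 Nlrp3 starts and in Naip5. A match is a description of letters and not a binding site.

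The kept cells numbered 13559 in control, 8240 in sham, 7720 in CLP and 8021 in the stimulated library, and held 48557982 to 51904157 UMIs per library. Median depth was 2996 UMIs per cell in control and 4919 to 5456 in the other libraries. Between 19 and 60 barcodes were shared by any 2 libraries. Cells were gated one by one on marker genes, and each class is called by its markers, as in macrophage-like. Macrophage-like cells numbered 3936, 3022, 1516 and 2812, with the libraries in that order here and below, and neutrophil-like cells 126, 189, 201 and 307. Endothelial-like cells numbered 3089, 1582, 1916 and 494, and fibroblast-like cells 3140, 1665, 1959 and 1288. Cells without a clear class stood apart in CLP plus stimulation, where 1525 of 8021 reached no class's marker minimum, against 312 to 807 in the other libraries. Cells near the limit of the gate, with a lead under 20% of the marker list, made up 4.77% to 6.61% of macrophage-like cells in control and sham and 15.3% to 16.4% in the CLP libraries.

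Levels are a gene's UMIs relative to all UMIs of its class in that library (CPM), and parentheses hold 95% intervals that cover counting error only. The values are 3′ UMI counts and are compared between libraries and classes, not between genes. Nlrp3, the sensor of membrane damage and ion loss (ENSMUSG00000032691, GRCm38 chromosome 11, 59541568 to 59566956), was found in macrophage-like cells at 157 CPM (151 to 164) in control, 159 (153 to 165) in sham, 280 (271 to 289) in CLP and 909 (896 to 922) in the stimulated library. Control and sham overlapped, CLP was higher than both, and CLP plus stimulation was highest. The log2 ratio was 0.82 (0.74 to 0.89) for CLP over sham and 1.70 (1.65 to 1.75) for CLP plus stimulation over CLP, a 3.24-fold difference. At least 1 Nlrp3 UMI was seen in 31.6%, 40.0%, 64.9% and 76.6% of these cells in the same order of libraries. With each cell thinned to 1000 UMIs the shares were 13.4%, 12.8%, 23.1% and 45.2%, which left out 530, 191, 42 and 146 shallower cells. Fibroblast-like cells, which were deeper (median 4518.5 to 8767 UMIs against 3372 to 7413.5), held a Nlrp3 UMI in 0.541%, 1.56%, 1.94% and 8.54% of cells, so the macrophage shares lie far above the share in a class with little of the gene.

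Pycard, the adaptor ASC (ENSMUSG00000030793, chromosome 7, 127989708 to 127993867), had the opposite order in the septic libraries. Its level in macrophage-like cells was 139 CPM (133 to 145) in control, 148 (143 to 154) in sham, 522 (509 to 535) in CLP and 145 (140 to 150) in the stimulated library. Only the CLP library stood apart, 3.52-fold above sham, with a log2 ratio of 1.82 (1.75 to 1.88). CLP plus stimulation over CLP gave -1.85 (-1.91 to -1.79), and over sham -0.03 (-0.11 to 0.04). The thinned share of cells with a Pycard UMI was 12.5%, 12.8%, 35.2% and 11.8%.

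The caspases did not share one order. Casp1, whose product cuts the cytokine precursors (ENSMUSG00000025888, chromosome 9, 5298517 to 5307265), stayed between 43.2 and 61.6 CPM in macrophage-like cells of all 4 libraries. Its log2 ratio was -0.50 (-0.65 to -0.35) for CLP over sham and -0.01 (-0.17 to 0.15) for CLP plus stimulation over CLP. Its neighbour Casp4 (ENSMUSG00000033538, chromosome 9, 5308828 to 5336783), which starts 1562 bases beyond the end of Casp1, was at 205 CPM (197 to 212) in control, 161 (156 to 167) in sham, 106 (101 to 112) in CLP and 257 (250 to 264) in the stimulated library. The CLP library was the lowest and the stimulated library the highest, and no intervals overlapped. Casp4 differed by a log2 ratio of -0.60 (-0.70 to -0.51) for CLP over sham and 1.27 (1.18 to 1.36) for CLP plus stimulation over CLP.

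Gsdmd, the pore former (ENSMUSG00000022575, chromosome 15, 75862327 to 75867408), was at 34.9 CPM (32.0 to 38.1) in control, 34.6 (31.9 to 37.4) in sham, 37.2 (33.9 to 40.8) in CLP and 17.5 (15.7 to 19.4) in the stimulated library. The first 3 libraries overlapped and the stimulated library was lower, with a log2 ratio of -1.09 (-1.29 to -0.89) against CLP. Gsdmd thus had its lowest macrophage level in the library in which Nlrp3 and Casp4 had their highest.

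The remaining sensors were scarcer. Aim2, a sensor of cytosolic DNA (ENSMUSG00000037860, chromosome 1, 173350879 to 173466040), was at 48.4, 38.8, 19.7 and 34.4 CPM in macrophage-like cells of the 4 libraries, lowest in CLP with a log2 ratio to sham of -0.97 (-1.19 to -0.76). Nlrc4, the sensor that acts with NAIP proteins on bacterial flagellin and secretion needles (ENSMUSG00000039193, chromosome 17, 74425438 to 74459142), was at 12.9, 15.9, 4.52 and 7.51 CPM. The CLP value rested on 57 UMIs and was lower than sham by a log2 ratio of -1.81 (-2.26 to -1.41). Naip5, the flagellin receptor of that complex (ENSMUSG00000071203, chromosome 13, 100211739 to 100246323), was at 17.1, 13.0, 9.51 and 11.8 CPM and stayed within 2-fold. Naip5 has near-identical relatives in its gene cluster, so its share of their reads is uncertain. Aim2 overlaps Cadm3 on the other strand. Strand use in the counting is not given in the sources used here, so whether reads of the 2 genes were told apart is not known.

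Txnip, the thioredoxin-interacting protein that can bind NLRP3 and that is best known as a glucose-responsive gene (ENSMUSG00000038393, chromosome 3, 96557957 to 96561883), was at 550, 520, 386 and 546 CPM in macrophage-like cells. CLP was lowest, with a log2 ratio to sham of -0.43 (-0.48 to -0.38) and of CLP plus stimulation to CLP of 0.50 (0.45 to 0.55). Txnip overlaps Gm15441 on the other strand, with the same limit as for Aim2.

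In macrophage-like cells, 1 of the 9 genes (Pycard) was at least 2-fold higher in CLP than in sham and 1 (Nlrc4) at least 2-fold lower. Of all 12658 genes with at least 20 UMIs over both libraries, 5.27% were 2-fold higher and 18.1% lower, and their median log2 ratio was -0.24. With TMM scaling, which sets the bulk of genes to no difference, that median was -0.01 and Nlrp3 reached 1.04. For CLP plus stimulation over CLP, Nlrp3 and Casp4 were 2-fold higher and Pycard and Gsdmd 2-fold lower, beside backgrounds of 8.57% and 8.79%. For sham over control none of the 9 reached 2-fold in either direction, beside backgrounds of 1.70% and 1.59%. Markers of other cells moved with the libraries: neutrophil markers in the macrophage-like class summed to 86.0 CPM in control, 228 in sham, 1283 in CLP and 1234 in the stimulated library. Of the 8 neutrophil markers all were detected except Ly6g in sham. The macrophage markers of the class itself summed to 17398 CPM in control, 19786 in sham, 11908 in CLP and 8997 in the stimulated library. The part of neutrophil transcripts, or of the make-up of the class, in any of the differences between libraries was not tested.

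**Figure D1:**
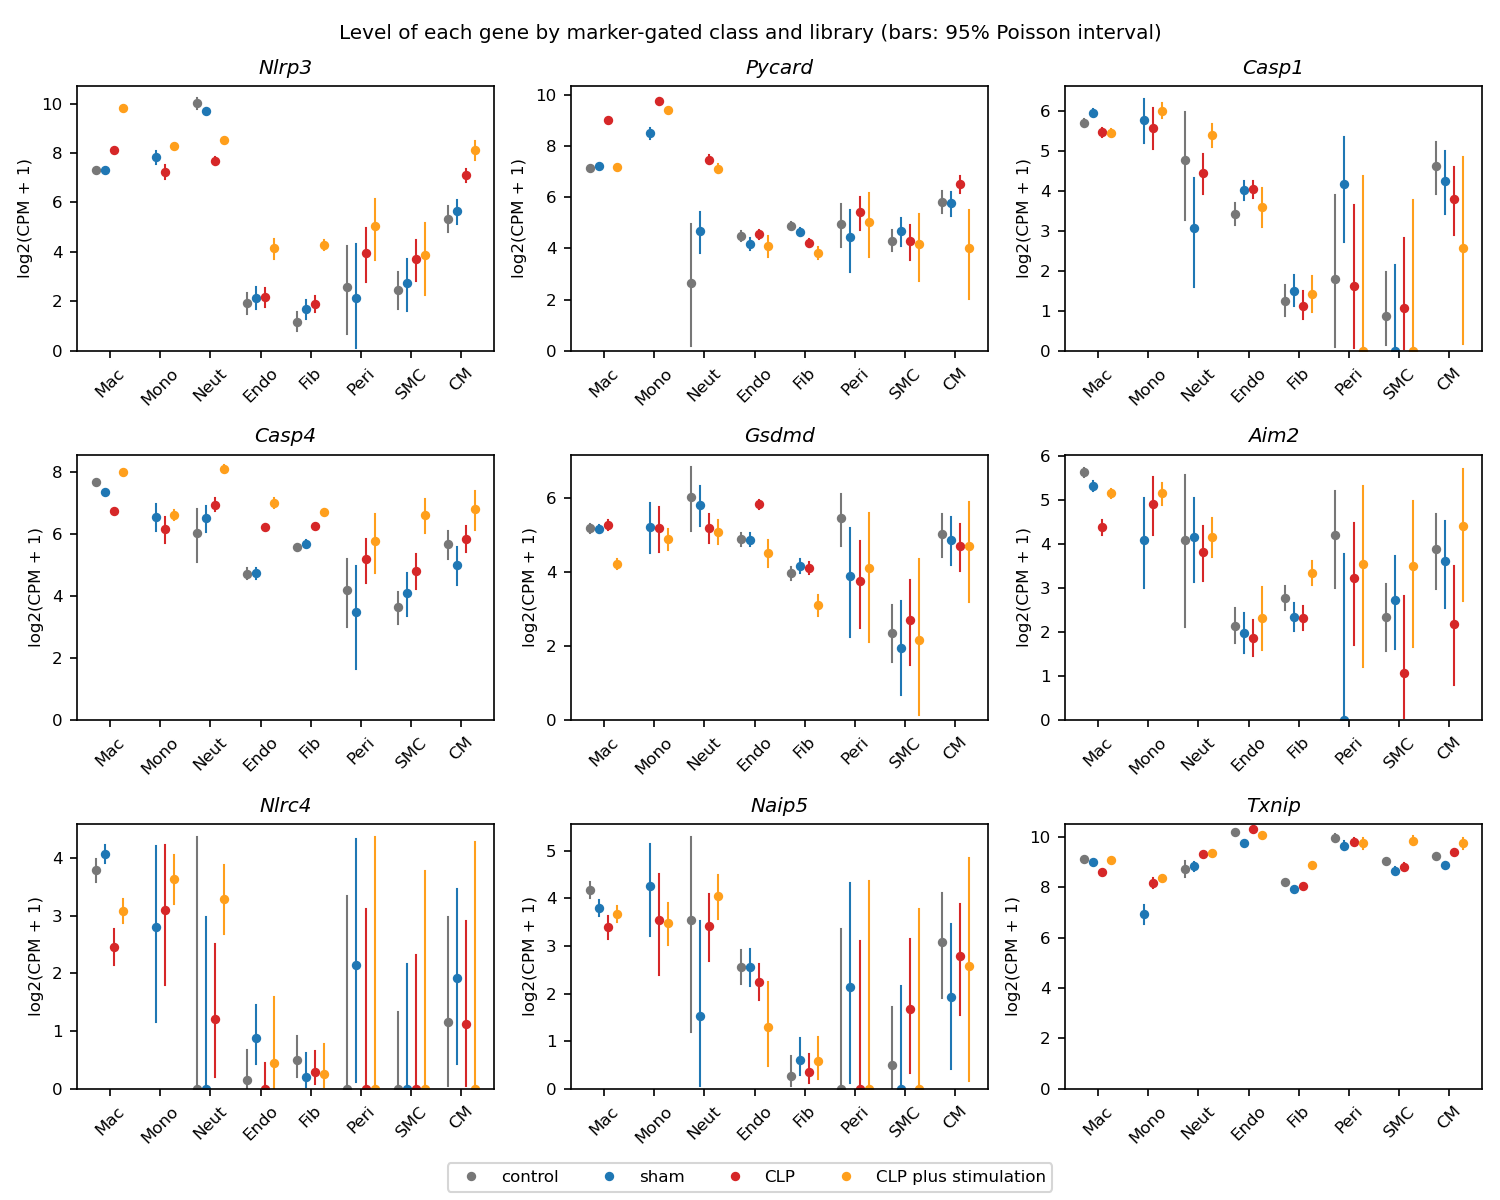
Level of each gene, as log2(CPM + 1), by marker-gated class (Mac macrophage-like, Mono monocyte-like, Neut neutrophil-like, Endo endothelial-like, Fib fibroblast-like, Peri pericyte-like, SMC smooth muscle-like, CM cardiomyocyte-like) and library, with bars for the 95% Poisson interval of the class sum and no point where a library had under 50 cells of the class. In macrophage-like cells Nlrp3 was highest in CLP plus stimulation (909 CPM) and Pycard in CLP (522 CPM).

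The macrophage-like cells were split into resident cells (at least 2 of Timd4, Lyve1, Folr2 and Cd163), other cells with all 4 MHC class II markers, and the rest, since the make-up differed between libraries: the MHC class II high subset held 123 cells in CLP and 960 to 1249 in the others. Nlrp3 in resident cells was 127, 134, 215 and 700 CPM over the 4 libraries. In the MHC class II high subset it was 202, 198, 290 and 1148 CPM, and in the rest 191, 221, 348 and 898 CPM. The stimulated library was highest in each subset.

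Pycard was 147, 152, 566 and 146 CPM in resident cells, and 126, 144, 553 and 147 CPM in the MHC class II high subset. In the rest it was 133, 133, 468 and 137 CPM. The CLP library was more than 3-fold above the others in each subset. Casp4 was lowest in CLP in each subset, at 99.7, 76.6 and 120 CPM in resident, MHC class II high and other cells, against 235, 268 and 284 CPM in CLP plus stimulation. Gsdmd was 36.8, 44.8 and 36.0 CPM in CLP and 15.9, 18.7 and 18.7 CPM in CLP plus stimulation.

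**Figure D2:**
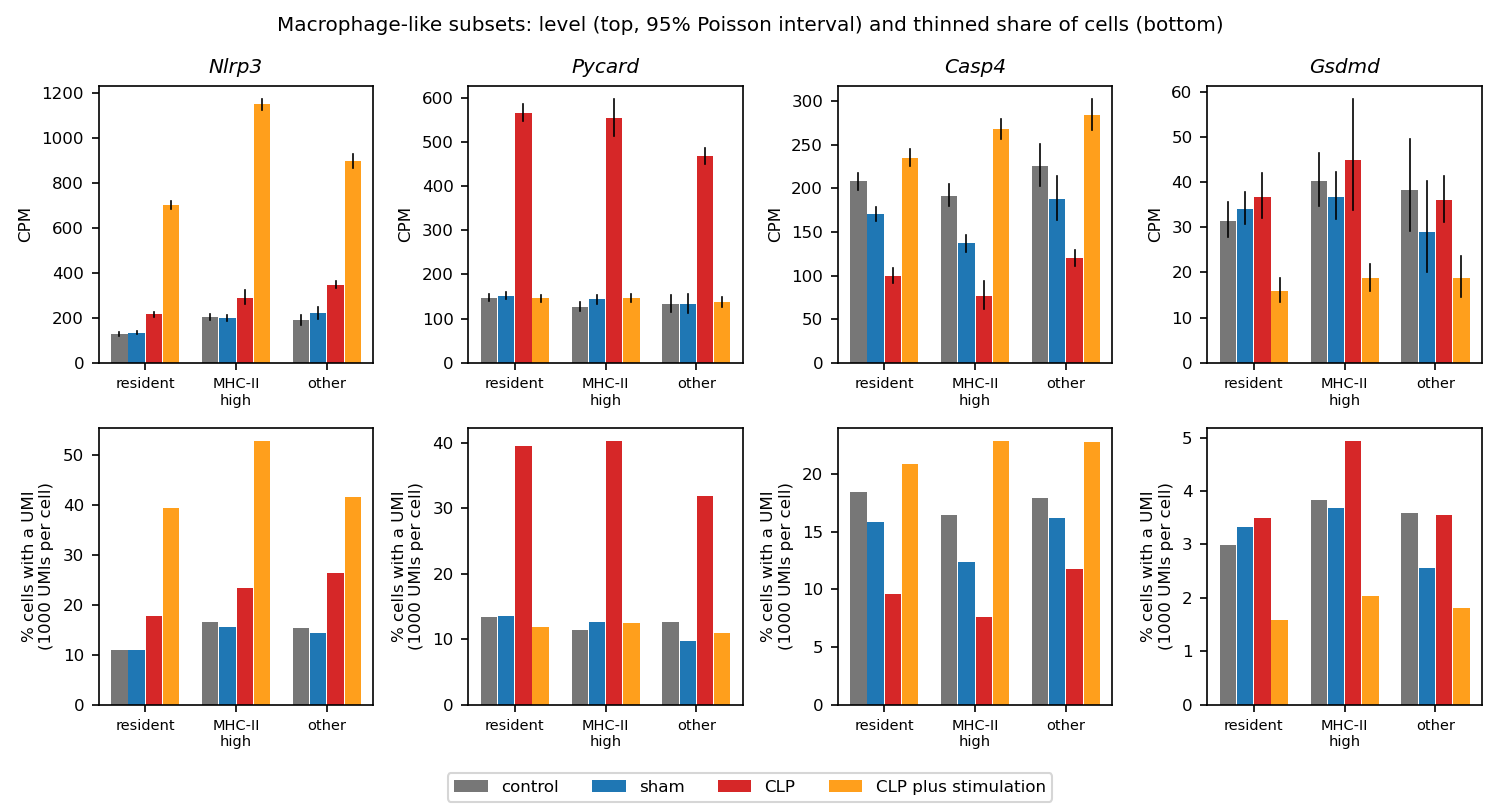
Nlrp3, Pycard, Casp4 and Gsdmd in the 3 subsets of macrophage-like cells, as CPM with 95% Poisson intervals (top) and as the percentage of cells with a UMI after thinning to 1000 UMIs per cell (bottom), with bars coloured by library. Each gene kept its order of the 2 CLP libraries in all 3 subsets, with Nlrp3 at 215 against 700 CPM and Pycard at 566 against 146 CPM in resident cells.

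In neutrophil-like cells the order of Nlrp3 was different. Its level was 1027 CPM (887 to 1182) in control, 834 (759 to 916) in sham, 206 (184 to 230) in CLP and 366 (341 to 392) in the stimulated library. Control and sham overlapped and both CLP libraries were lower, with a log2 ratio of -2.02 (-2.23 to -1.81) for CLP over sham, a 4.05-fold difference, and of 0.83 (0.64 to 1.02) for CLP plus stimulation over CLP. The make-up and depth of the class differed too. The 8 neutrophil markers summed to 122715, 178123, 340643 and 233120 CPM of the class, and the median depth of its cells was 1444.5, 2654, 6418 and 6285 UMIs. Counted per cell, Nlrp3 was at 1.53, 2.35, 1.58 and 2.69 UMIs, lower in CLP than in sham and higher in CLP plus stimulation than in sham. These counts per cell are not corrected for depth. The part of make-up and depth in the CPM differences was not tested. After thinning to 1000 UMIs, 53.1%, 50.5%, 18.8% and 26.1% of neutrophil-like cells held a Nlrp3 UMI.

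Pycard in neutrophil-like cells was at 5.32 CPM (0.135 to 29.6) in control, 24.4 (13.0 to 41.7) in sham, 177 (157 to 199) in CLP and 139 (124 to 155) in the stimulated library. The control and sham values rest on 1 and 13 UMIs. Both CLP libraries were higher, with a log2 ratio of 2.81 (2.06 to 3.79) for CLP over sham, and the thinned share of cells with a Pycard UMI was 0.507%, 2.07%, 12.3% and 12.6%. Pycard per cell was 0.00794, 0.0688, 1.35 and 1.02 UMIs. Macrophage markers summed to 729, 877, 248 and 212 CPM in the class, and monocyte markers to 394, 426, 2397 and 2450 CPM, so the first were lower and the second higher in the 2 libraries where Pycard was higher. Their part in the difference was not tested.

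Casp4 in neutrophil-like cells was 63.8 CPM (33.0 to 112), 90.0 (66.4 to 119), 123 (106 to 142) and 276 (255 to 298), highest in CLP plus stimulation. Its log2 ratio was 0.44 (-0.01 to 0.94) for CLP over sham and 1.16 (0.93 to 1.41) for CLP plus stimulation over CLP, and the second was 0.86 with TMM scaling. Casp1 was at 26.6, 7.50, 20.8 and 41.2 CPM from 5, 4, 32 and 93 UMIs. Its log2 ratio of 1.32 for CLP over sham had an interval from -0.02 to 3.43, so no difference can be read at this depth. Gsdmd was at 63.8, 54.4, 35.1 and 32.8 CPM with overlapping intervals, and Txnip at 426, 456, 641 and 665 CPM.

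Nlrc4 had no UMI in neutrophil-like cells of control and sham, which with a floor of 3 UMIs allows up to 16.0 and 5.62 CPM. It had 2 UMIs in CLP and 20 in CLP plus stimulation, a log2 ratio of 2.48 (0.73 to 5.91). Aim2 lay between 13.0 and 16.9 CPM and Naip5 between 1.88 and 15.5 CPM. Of the 9 genes, 7 had enough UMIs for CLP over sham, with 2 higher (Pycard and, with an interval that includes 0, Casp1) and 1 lower (Nlrp3) by 2-fold, beside backgrounds of 11.0% and 15.2%. For CLP plus stimulation over CLP, 2 of 9 (Casp4, Nlrc4) were 2-fold higher and none lower, beside 14.8% and 5.29%. For sham over control none of the 4 with enough UMIs reached 2-fold, beside 3.74% and 5.51%.

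In endothelial-like cells Casp4 was higher in both CLP libraries than in sham. It was at 25.3 CPM (22.2 to 28.7) in control, 25.5 (22.2 to 29.2) in sham, 74.2 (69.0 to 79.6) in CLP and 127 (114 to 141) in the stimulated library. Control and sham overlapped, and each CLP library was above both. The log2 ratio was 1.54 (1.32 to 1.77) for CLP over sham and 0.78 (0.59 to 0.96) for CLP plus stimulation over CLP. Macrophage markers, all 9 of them detected, summed to 298 CPM of the endothelial-like class in sham and 163 CPM in CLP. Neutrophil markers summed to 103 CPM in sham and 456 in CLP. The part of either in the Casp4 difference was not tested.

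Gsdmd in endothelial-like cells was at 28.3 CPM (25.0 to 31.9), 28.2 (24.6 to 32.0), 55.2 (50.8 to 59.9) and 21.7 (16.6 to 27.9). Only CLP was higher, with a log2 ratio of 0.97 (0.75 to 1.20) to sham, which became 1.13 with TMM scaling, and CLP plus stimulation over CLP gave -1.34 (-1.76 to -0.96). Casp4 and Gsdmd, the endotoxin-binding caspase and its substrate, were both higher in the CLP library of this class than in sham, and in the stimulated library Gsdmd was lower than in CLP while Casp4 was higher. Txnip was 1174, 875, 1261 and 1082 CPM.

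Nlrp3 was scarce in endothelial-like cells, at 2.77, 3.40, 3.46 and 16.6 CPM, with a log2 ratio of 2.26 (1.60 to 2.93) for CLP plus stimulation over CLP from 46 and 36 UMIs. In the stimulated library 6.28% of 494 cells held a Nlrp3 UMI, and 1 cell held 12 of the 46. Macrophage markers summed to 163 CPM of the class in CLP and 172 CPM in CLP plus stimulation, and neutrophil markers to 456 and 517 CPM. Macrophage-like cells held Nlrp3 at 280 and 909 CPM in the same libraries. The part of either class in the endothelial Nlrp3 difference was not tested. Pycard lay between 15.9 and 22.4 CPM, Casp1 between 9.81 and 15.5, Aim2 between 2.60 and 3.98 and Naip5 between 1.45 and 4.90. Nlrc4 had at most 7 UMIs in any library of the class. Of 8 genes with enough UMIs, 1 (Casp4) was 2-fold higher in CLP than in sham and none lower, beside backgrounds of 4.34% and 7.45%. For CLP plus stimulation over CLP, 1 of 8 (Nlrp3) was higher and 2 (Gsdmd, Naip5) lower, beside 8.76% and 19.2%, with the Naip5 interval reaching from -3.32 to 0.10. None of 8 reached 2-fold for sham over control, beside 1.66% and 0.705%.

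In fibroblast-like cells Casp4 was at 46.6 CPM (43.1 to 50.2), 50.8 (47.0 to 54.8), 75.1 (71.1 to 79.3) and 105 (98.7 to 111). The order of libraries was that of the endothelial-like class, with log2 ratios of 0.56 (0.43 to 0.70) for CLP over sham and 0.48 (0.36 to 0.60) for CLP plus stimulation over CLP. Gsdmd was 14.5, 16.8, 16.2 and 7.51 CPM, lowest in the stimulated library with a log2 ratio to CLP of -1.10 (-1.49 to -0.74), which was -0.91 with TMM scaling. Nlrp3 was 1.23, 2.19, 2.71 and 18.5 CPM, with a log2 ratio of 2.76 (2.31 to 3.26) for CLP plus stimulation over CLP.

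The 190 Nlrp3 UMIs of the stimulated fibroblast-like cells lay in 8.54% of 1288 cells, and 1 cell held 24 of them. Neutrophil markers, all 8 detected, summed to 595 CPM of that class in CLP plus stimulation and 330 in CLP. Macrophage markers, all 9 detected, summed to 183 CPM and 104 CPM. Their part in the Nlrp3 difference was not tested. Aim2 was 5.83, 4.08, 3.95 and 9.17 CPM, with a log2 ratio of 1.21 (0.75 to 1.68) in the same comparison, and Txnip 295, 244, 266 and 472 CPM with 0.83 (0.77 to 0.88). Pycard was 28.7, 24.0, 17.4 and 13.3 CPM and Casp1 1.37, 1.81, 1.19 and 1.66 CPM in this class. Nlrc4 and Naip5 had at most 7 UMIs in any of its libraries. Of 7 genes with enough UMIs, 2 (Nlrp3, Aim2) were 2-fold higher and 1 (Gsdmd) lower in CLP plus stimulation than in CLP, beside backgrounds of 5.07% and 16.9%. None reached 2-fold for CLP over sham, beside 3.74% and 7.58%, or for sham over control, beside 0.990% and 1.23%.

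**Figure D3:**
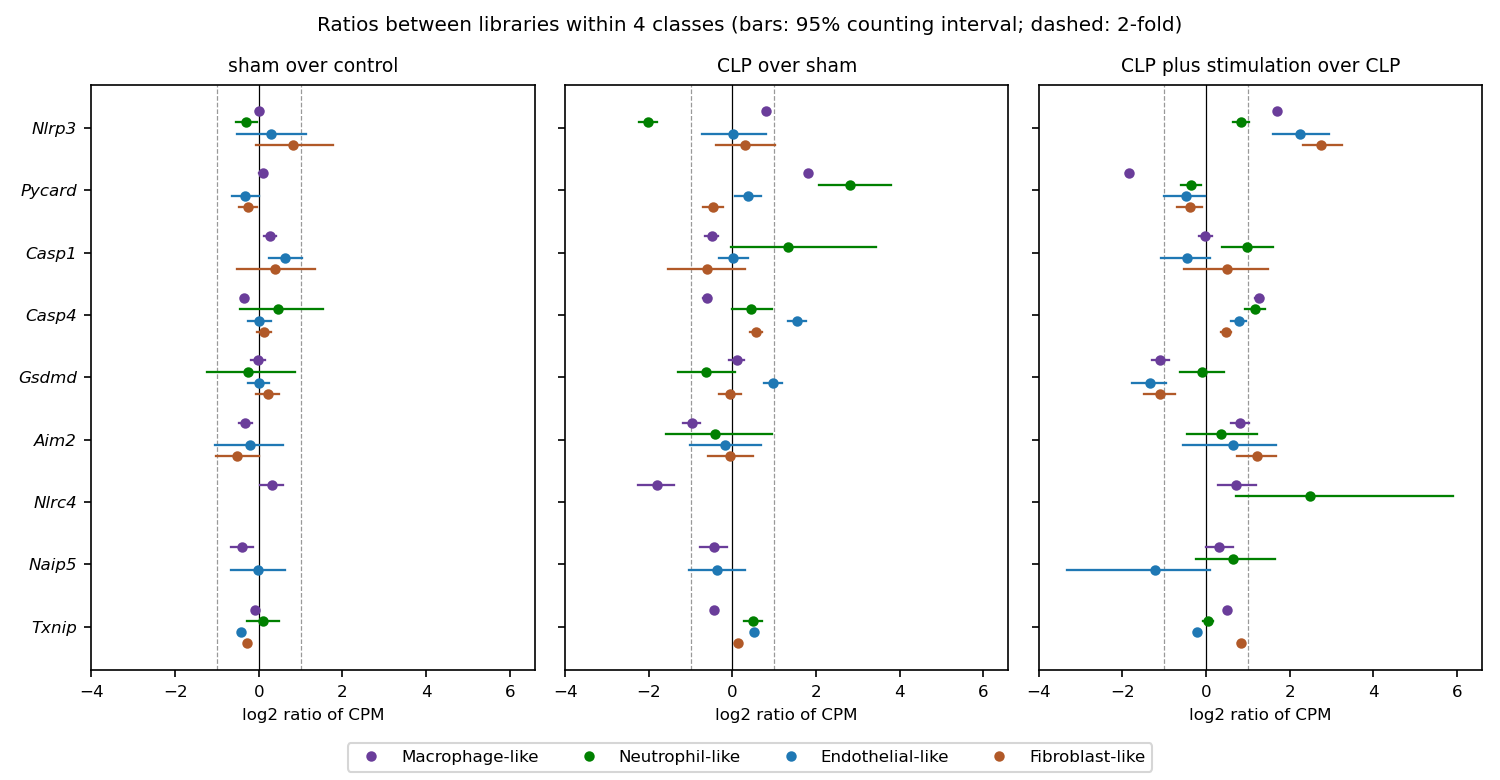
Log2 ratios of CPM between libraries for the 9 genes in 4 classes, with bars for the 95% counting interval, dashed lines at 2-fold and no point where both libraries together held under 20 UMIs. For CLP over sham, Nlrp3 lies at 0.82 in macrophage-like and -2.02 in neutrophil-like cells, and Casp4 at -0.60 in macrophage-like and 1.54 in endothelial-like cells.

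The rarer classes rest on fewer UMIs. Monocyte-like cells, 57 in sham, 53 in CLP and 187 in the stimulated library, had Pycard at 360 CPM (309 to 417), 860 (790 to 934) and 678 (651 to 706), and Nlrp3 at 227, 151 and 310 CPM. Neutrophil markers summed to 2900, 16778 and 9328 CPM of that class, and their part was not tested. Casp4 in smooth muscle-like cells was 11.4, 16.0, 27.2 and 96.5 CPM, from 17 to 28 UMIs each. Casp4 in pericyte-like cells was 17.5, 10.3, 35.3 and 53.6 CPM, from only 7, 3, 17 and 10 UMIs. Its log2 ratio was 1.60 (-0.01 to 4.19) for CLP over sham and 0.63 (-0.69 to 1.81) for CLP plus stimulation over CLP. CLP plus stimulation and sham together held too few UMIs for a ratio, so no difference can be read in this class. Neutrophil markers summed to 36.7, 53.5, 331 and 441 CPM of the smooth muscle-like class and to 57.4, 106, 600 and 739 CPM of the pericyte-like class, and their part was not tested. Cardiomyocyte-like cells had Nlrp3 at 39.8, 48.9, 136 and 275 CPM, while macrophage markers summed to 2641, 2449, 1648 and 1196 CPM and neutrophil markers to 49.7, 152, 1037 and 1282 CPM of the class. Their median depth was 941 to 1049 UMIs. Txnip was 403 to 924 CPM in smooth muscle-like, 805 to 993 CPM in pericyte-like and 467 to 866 CPM in cardiomyocyte-like cells.

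Set in order of level over the 4 main classes within the CLP library, Nlrp3 was highest in macrophage-like cells (280 CPM), then neutrophil-like (206 CPM), and endothelial-like (3.46 CPM) and fibroblast-like cells (2.71 CPM) had overlapping intervals. In sham the first 2 were reversed, at 159 and 834 CPM. Casp4 in CLP was 123 CPM in neutrophil-like and 106 CPM in macrophage-like cells, with overlapping intervals, and 75.1 and 74.2 CPM in fibroblast-like and endothelial-like cells, also overlapping. In sham its order was macrophage-like (161 CPM), neutrophil-like (90.0 CPM), fibroblast-like (50.8 CPM) and endothelial-like (25.5 CPM). Of these 4 classes, Txnip was highest in endothelial-like cells in all 4 libraries.

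Of a list of 39 further genes of the pathway, 36 had a row of their own by symbol. In macrophage-like cells 33 had enough UMIs. For CLP over sham, 7 were at least 2-fold higher and 9 lower, beside 5.27% and 18.1% of all genes tested, with a median log2 ratio of -0.26 beside -0.24 over all genes. The highest were Il1rn, the interleukin 1 receptor antagonist, at 3.28 (3.12 to 3.45) and Zbp1, a sensor of Z-form nucleic acids, at 1.53 (1.40 to 1.66). The lowest were Irf1, an interferon-induced transcription factor, at -2.01 (-2.16 to -1.86) and Gbp3, a guanylate-binding protein, at -1.98 (-2.32 to -1.66).

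For CLP plus stimulation over CLP in macrophage-like cells, 5 of the 33 were 2-fold higher and 2 lower, beside 8.57% and 8.79% of all genes, with a median of 0.19 beside 0.04. Il1a at 1.81 (1.60 to 2.04) and Il1rn at 1.51 (1.44 to 1.57) were highest, and the sensors Nlrp1b at -1.41 (-2.22 to -0.65) and Nlrp1a at -1.17 (-2.34 to -0.08) lowest. Of the caspase-1 substrates, Il1b was 155, 157, 381 and 948 CPM in the 4 libraries, the same order as Nlrp3. Il18, the other cytokine that caspase-1 cuts, was 27.7, 28.1, 26.1 and 14.8 CPM, lowest in the stimulated library as was Gsdmd.

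In neutrophil-like cells 21 of the 36 genes had enough UMIs for CLP over sham, with 2 higher and 7 lower, beside 11.0% and 15.2% of all genes, and a median of -0.66 beside -0.17. Serpinb1a, an inhibitor of neutrophil proteases and caspase-1, was highest at 3.70 (2.79 to 5.01), followed by Zbp1 at 1.70 (1.13 to 2.39). Gbp2 was lowest at -2.34 (-3.42 to -1.36), then Ninj1, whose product ruptures the membrane of dying cells, at -1.99 (-2.29 to -1.70).

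For CLP plus stimulation over CLP in neutrophil-like cells, 8 of 25 were higher and none lower, beside 14.8% and 5.29% of all genes, with a median of 0.51 beside 0.29. Il1rn at 2.19 (1.99 to 2.41) and Gbp2 at 2.09 (1.31 to 3.06) were highest. The lowest ratios were Gsdme at -0.92 and Il18bp at -0.55. With TMM scaling 4 reached 2-fold. Il1b in neutrophil-like cells was 2091, 1909, 639 and 1523 CPM, lowest in CLP as was Nlrp3. Il1a had 11 UMIs in sham and 9 in CLP.

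**Figure D4:**
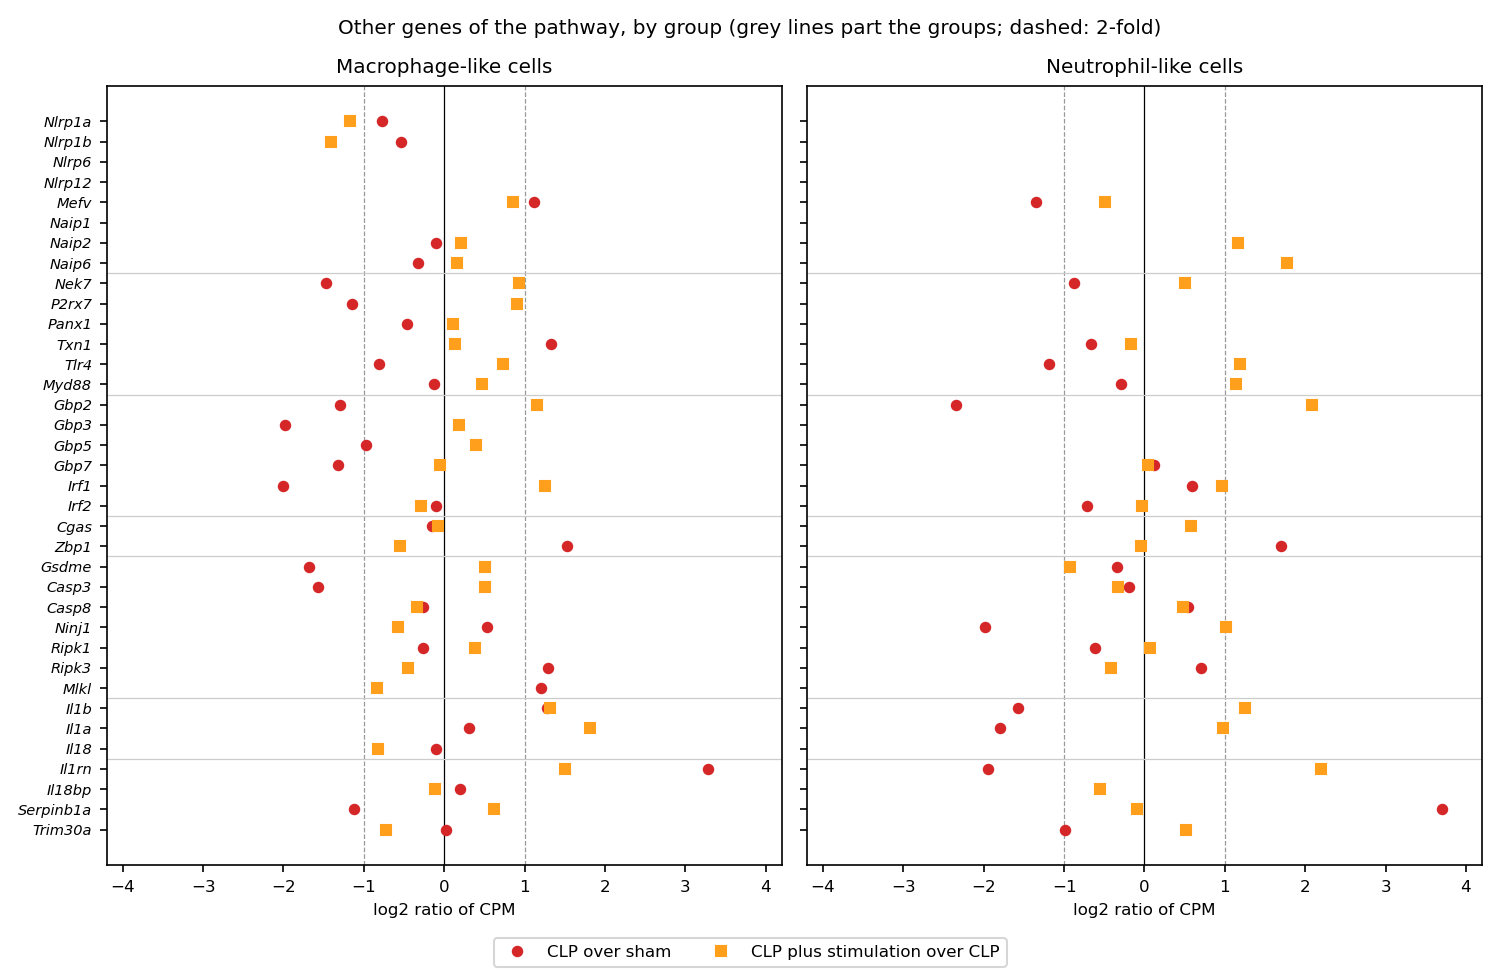
Log2 ratios of CPM for the other genes of the pathway in macrophage-like (left) and neutrophil-like cells (right), as circles for CLP over sham and squares for CLP plus stimulation over CLP, with grey lines between groups of the list and no point under 20 UMIs. Il1rn lies at 3.28 in macrophage-like and -1.95 in neutrophil-like cells for CLP over sham.

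Across 39 groups of class and library, the genes whose log2(CPM + 5) was most like that of a member were named by Pearson's r over 7423 genes. The groups share libraries and depth, so these values are descriptions. Nlrp3 was most like Cd14 (r = 0.97), Plek (0.96) and Cxcl2 (0.96), and Pycard most like AI662270 (0.94), Kcnab2 (0.91) and Ifi209 (0.86). Casp4 was most like Nfkbib (0.82), Map3k8 (0.80) and Nfkbia (0.77). Casp1 was most like Sh3bgrl3 (0.89), Nrros (0.87) and Cybb (0.85). Aim2 was most like Ctss (0.84), March1 (0.82) and Irf5 (0.82), and Txnip most like Rgs16 (0.73), Dcbld1 (0.72) and Wasf2 (0.71). Nlrc4 and Naip5 had 20 UMIs in only 6 and 9 of the 39 groups and were not ranked.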

How the data were processed

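The deposited matrices give UMI counts, not normalized, for each gene in each barcode. Per the file headers they come from Cell Ranger 5.0.0, and the submitters' processing notes name STAR and mm10. Per the labels, libraries followed the 10x Chromium v3 protocol for 3′ ends. Barcodes with at least 500 UMIs, at least 200 genes and at most 20% mitochondrial UMIs were kept, and those with the highest Scrublet scores (scanpy 1.11.5; 0.8% per 1000 barcodes, 611 to 2039 per library) were left out as doublets. A cell took the class with the largest share of its markers detected, with at least 3 markers (4 for neutrophils) and a lead of 10% of the marker list over the next class. These minimums were set with the counts in view. Classes needed 50 cells.

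UMIs were summed per class and library and scaled by the class total to CPM, with exact Poisson intervals. Shares of cells are as counted or thinned to 1000 UMIs. Log2 ratios used a prior count of 0.5 and conditional binomial intervals, for genes with at least 20 UMIs over both libraries. No test is possible with 1 library per group, and "2-fold" is a rule of size. The members, the pathway list and the markers were chosen with earlier results of these data known. The rule names all 9 members in every class, of which the classes outside the 4 main ones are given by examples, and of the pathway list the 2 highest and 2 lowest ratios per comparison in macrophage-like and neutrophil-like cells and the 3 cytokine substrates. For members with 20 UMIs in at least 10 groups, the 3 most similar genes with at least 50 CPM in a group are named, except that those of Gsdmd are not reported here. Scaling was also done with TMM (edgeR 4.0.16). The ratio and gate calculations were tested on simulated data, with counting error only and with markers detected independently at fixed rates. That checks the calculation, and it holds no spread between animals and no RNA from other cells. Gene positions are from GENCODE vM21 on GRCm38.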

Additional observations from a re-analysis of the deposited data

Results flagged for a closer look

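Nlrp3 went opposite ways in 2 classes between the same libraries, with a log2 ratio of CLP over sham of 0.82 in macrophage-like and -2.02 in neutrophil-like cells. Casp4 was likewise opposite, at 1.54 in endothelial-like and -0.60 in macrophage-like cells. The macrophage value was -0.37 with TMM scaling, and sham over control, without sepsis, gave -0.34 for Casp4 in that class. With 1 library per group the difference between classes was not tested. Intervals cover counting error only.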

How the results depend on the processing

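With 1 library per group, leaving out a replicate was not possible, and depth limits what can be read of Nlrc4, Naip5 and Aim2 outside macrophage-like cells. No paired analysis was possible because each group has 1 library and the labels give no replicate numbers. The 92 ratios of members considered were those of the 4 main classes, without CLP plus stimulation over sham. Of them, 18 were at least 2-fold. None of those 18 changed sign under any of the 9 alternatives, while 0 to 7 of all ratios did under each. Of 144 member levels in these classes, 43 left their counting interval with each cell weighted the same, and 26 with doublets kept. With a stricter gate 1 did, with at most 10% mitochondrial UMIs 1, and with cells of at least 2000 UMIs 2 of 135. All 18 stayed 2-fold with a stricter gate, with cells of at least 2000 UMIs and with at most 10% mitochondrial UMIs. Dropping the minimum of counts only adds genes and leaves each ratio as it was, so it could not move these 18. With doublets kept 16 did, with each cell weighted the same 15, with TMM or median-of-ratios scaling 16 each, and with 5 CPM added 14. Among these 18, the ratios that passed under 2-fold somewhere were those of Gsdmd, Aim2, Casp4, Casp1 and Naip5, and never those of Nlrp3 or Pycard. Outside the main classes, Nlrp3 in monocyte-like cells was at 1.03 for CLP plus stimulation over CLP, and at 0.82 with TMM scaling. The count of members 2-fold apart moved by over 1.5 times as follows, and smaller moves, such as from 2 to 3, are not listed. With no minimum of counts, sham over control gave 3, 1 and 2 in neutrophil-, endothelial- and fibroblast-like cells, against 0 in each. CLP over sham in endothelial-like cells gave 2 with each cell weighted the same, with both other scalings and with no minimum, against 1. CLP plus stimulation over CLP gave 1 in neutrophil-like cells with both other scalings, against 2, and 1 in fibroblast-like cells with 5 CPM added, against 3. For the pathway list, sham over control with no minimum gave 2, 10, 5 and 4 genes in macrophage-, neutrophil-, endothelial- and fibroblast-like cells, and 6 in neutrophil-like cells with TMM scaling. CLP over sham in fibroblast-like cells gave 10 with no minimum, and CLP plus stimulation over CLP in neutrophil-like cells 4 with TMM scaling. The cause was not tested, apart from the added genes where the minimum was dropped.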

Other observations

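Cells that reached no class's marker minimum numbered 807 in control, 312 in sham, 664 in CLP and 1525 with CLP plus stimulation, with median depths of 784 to 1020 UMIs. They held Nlrp3 at 58.6, 79.7, 245 and 266 CPM and Casp4 at 61.9, 54.5, 89.6 and 144 CPM. Cells between classes held Pycard at 76.7, 109, 140 and 276 CPM. T-like cells, with 99 in control, 84 in sham and 224 in CLP plus stimulation, held Pycard at 180, 499 and 59.5 CPM, while macrophage markers summed to 2662, 1778 and 690 CPM of that class, neutrophil markers to 31.7, 1616 and 1520 CPM and natural killer cell markers to 378, 3472 and 1080 CPM. Their part was not tested. B-like cells held Pycard at 169, 105 and 199 CPM in the same 3 libraries. Over all kept cells Nlrp3 was at 60.1, 80.1, 96.9 and 482 CPM and Pycard at 68.3, 89.9, 174 and 155 CPM.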
